A study of Mus musculus with 6 samples.

Results

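Cell cycle and DNA replication genes were examined in monocytes from the CNS of mice with experimental autoimmune encephalomyelitis (EAE), a model of multiple sclerosis. The set held 45 genes, taken by name: factors of origin licensing, the replication fork, nucleotide supply, the G1/S and mitotic cyclins, mitotic kinases, the anaphase-promoting complex, and the spindle and chromosomes. The files listed 54232 genes, of which 11254 passed the expression filter and were tested, and all 45 were among these. There were 3 WT and 3 Ifnar1-/- libraries, numbered 1 to 3 in each group, so each value below rests on n = 3 per genotype. Every library came from GFP+ recipients that were lethally irradiated and reconstituted with equal parts of WT (CD45.1) and Ifnar1-/- (CD45.2) BM, immunized for EAE, and given 30000 IU of rIFN-β daily. Donor monocytes of both genotypes (GFP-CD45+CD11b+Ly6ChiLy6G-) were sorted at disease peak, and no untreated library was part of the comparison. IFNAR1 is a chain of the receptor for all type I IFNs, so the comparison asked how the level of each gene depended on the presence of this receptor in monocytes of treated animals. The donors differed in their CD45 allele as well as in Ifnar1, and these cannot be told apart. The donor mutation is germline, the recipients supplied the nonhematopoietic cells, and the ages of the animals were not given in the sources used here. Each recipient carried cells of both donor genotypes, so a WT and an Ifnar1-/- library can come from the same mouse. The labels do not say which mouse each library came from. The main fit treated the libraries as independent, so p-values measure the spread between these libraries.

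Cells copy their DNA once per division. Replication origins are licensed in G1 when ORC, CDC6, and CDT1 load the MCM2-7 helicase, cyclin-dependent kinases then fire them in S phase, and cyclin A, cyclin B, and CDK1 drive entry into mitosis. S phase genes are activated by E2F factors after the retinoblastoma protein is phosphorylated, and genes of G2 and mitosis are repressed by the DREAM complex and activated by B-MYB and FOXM1 through CHR elements. Ly6Chi monocytes arise in the BM from dividing progenitors, and blood monocytes divide little, so transcripts of these genes in a sorted monocyte population can come from a small share of cells. In bulk RNA, fewer cells in cycle and less RNA per cell cannot be told apart.

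Libraries held 4531782 to 7321380 expected counts, and a count of 3 corresponded to 0.427 to 0.638 normalized CPM (CPM scaled to the TMM-adjusted library size), which covers counting error only. The monocyte genes Itgam, Lyz2, Csf1r, and Ptprc were high in all 6 libraries, with Lyz2 at 3211 to 5271 normalized CPM, while Pax5 of B cells, Alas2 of erythroid cells, and Mog and Rbfox3 of neural cells were at 0. Ly6c2, which encodes an antigen of the sorting gate, had 640 to 788 normalized CPM in WT and 177 to 337 in Ifnar1-/- libraries. It was called higher in WT (log2 fold change 1.40, edgeR adjusted p = 0.00957), so the sorted populations differed in the RNA of this marker. The monocyte gene Ccr2 had 587 to 694 in WT and 794 to 1269 in Ifnar1-/- libraries, and Fcgr1 had 271 to 413 and 192 to 203. Neither was called (edgeR adjusted p = 0.143 and 0.0839), and Cd14 overlapped between genotypes. Ifnar1 itself had 111 to 153 normalized CPM in WT and 102 to 110 in Ifnar1-/- libraries, and a count summed over all its exons does not check the deleted part. WT library 1 stood apart: the 7SL RNA gene Rn7s2 held 278102 TPM there, against 94354 and 107417 in the other WT libraries. Deposited TPM of every other gene is lowered by this in WT library 1, so levels are given as normalized CPM, and levels of different genes are compared per kb of effective transcript length. In GENCODE M21, Mcm7, Cdc45, Gins2, Tk1, Ccne2, Cdk2, Ccna2, Cdc20, and Ube2c overlap a protein-coding gene on the other strand, and Cdt1, Foxm1, and Rrm1 overlap a gene model on their own strand. Since the strand setting of the counting is not given in the sources used here, their counts are less certain.

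The promoters of the set are shown because they carry the elements that tie these genes to the cell cycle. RefSeq (GRCm38.p6) gave a window from 250 bases before to 50 bases after the start site for 34 of the 45 genes. Both strands were searched for E2F sites (TTTCCCGC, TTTGGCGC, or TTTCGCGC), the CHR element (TTTGAA), the CCAAT box (CCAAT), and the IFN-stimulated response element (GAAA repeated after any 2 bases). The Mcm5 window (chr8:75109259-75109558, plus strand) and the Cdk1 window (chr10:69352863-69353162, minus strand) are single examples of S phase and mitotic genes. Dck (chr5:88764763-88765062, plus strand) is the nucleotide kinase gene described with the other cell cycle lists. Capitals mark every match, on either strand.
Mcm5: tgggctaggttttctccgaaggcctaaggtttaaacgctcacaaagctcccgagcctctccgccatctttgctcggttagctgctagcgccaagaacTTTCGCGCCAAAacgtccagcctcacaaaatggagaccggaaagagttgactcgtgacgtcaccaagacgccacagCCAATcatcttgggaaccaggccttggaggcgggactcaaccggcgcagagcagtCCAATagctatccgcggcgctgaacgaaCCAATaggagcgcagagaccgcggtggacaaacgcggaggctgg
Cdk1: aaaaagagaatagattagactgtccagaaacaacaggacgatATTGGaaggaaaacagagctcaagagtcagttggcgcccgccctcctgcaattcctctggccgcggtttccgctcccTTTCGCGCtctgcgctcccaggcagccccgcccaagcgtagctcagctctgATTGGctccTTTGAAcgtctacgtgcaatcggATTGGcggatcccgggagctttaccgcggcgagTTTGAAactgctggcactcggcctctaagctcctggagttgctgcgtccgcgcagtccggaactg
Dck: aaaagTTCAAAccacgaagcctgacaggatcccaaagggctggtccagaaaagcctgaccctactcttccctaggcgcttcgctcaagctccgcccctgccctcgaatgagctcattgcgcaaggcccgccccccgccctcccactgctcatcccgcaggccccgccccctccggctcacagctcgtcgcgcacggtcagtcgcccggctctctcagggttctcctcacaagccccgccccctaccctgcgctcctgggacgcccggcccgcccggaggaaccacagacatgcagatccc
The Mcm5 window held 2 E2F matches that overlap and 3 CCAAT boxes, and the Cdk1 window held 1 E2F match, 2 CHR elements, and 3 CCAAT boxes. The Dck window held 1 CHR match. An E2F match was present in 7 of 17 windows of licensing, fork, nucleotide supply, and G1/S genes, and 2.12% of all genes with a window had one. Of the windows of mitotic genes 1 of 14 had a match, that of Cdk1, which is thus the exception among them. The CHR element had the opposite distribution, with 2 of 17 and 10 of 14 windows, against 20.2% of all genes. CCAAT boxes were in 26 of 34 windows, against 41.1% of all genes. The IFN-stimulated response element was in the windows of 2 of 34 genes, Bub1b and E2f8, and in 3.99% of all genes. Timeless had a RefSeq window 6001 bp inside the annotated gene, with no match to any of the 4 motifs. These matches describe the letters of the windows and do not show binding.

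Across the set, 1 of the 45 genes, Timeless, passed the test as higher in WT monocytes, and 0 passed as lower, and DESeq2 and limma-voom gave the same counts. Among all genes tested, 1.67% were called higher and 0.462% lower (edgeR quasi-likelihood test, where a call needs an adjusted p up to 0.05 together with a 1.5-fold or larger difference). Fitted log2 fold changes (WT over Ifnar1-/-) ran from -1.03 for Ccne2 to 1.92 for Timeless, with a median of -0.23 over the 45 genes and -0.01 over all genes tested. They were above 0 for 14 genes and below 0 for 31. At an unadjusted p below 0.05 there were 2 of the 45, Timeless and Cdt1, against 17.8% of all genes. The same 2 genes had every WT value above every Ifnar1-/- value, against 11.1% of all genes, and no member had every WT value below, against 12.2%. The precision was moderate: the 95% confidence interval lay within a 2-fold difference in either direction for 24 of the 45 genes and reached beyond it for 21. The median turned positive when WT library 1 (0.02) or Ifnar1-/- library 3 (0.05) was left out.

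**Figure D1:**
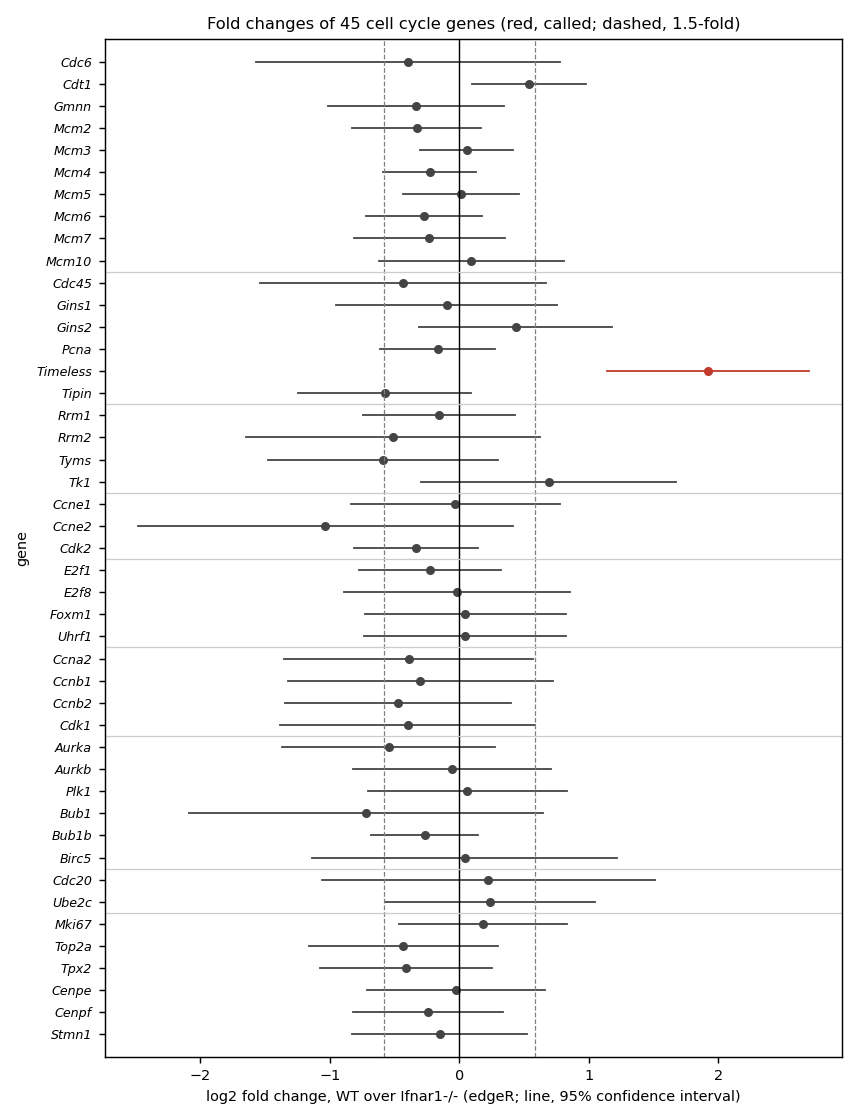
Log2 fold change of each of the 45 genes (x axis, WT over Ifnar1-/-; points, edgeR estimate; lines, 95% confidence interval), with grey lines between roles and dashed lines at 1.5-fold. Timeless, in red, is the single gene called, at 1.92, and the other points lie between -1.03 for Ccne2 and 0.69 for Tk1.

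Of the 10 licensing genes 0 were called, and their median log2 fold change was -0.23. Cdt1, which brings the MCM helicase to origins, had 23.8, 24.9, and 25.5 normalized CPM in the WT libraries 1 to 3, against 12.8, 21.2, and 17.1 in the Ifnar1-/- libraries 1 to 3, the order used for all genes below. Its groups were apart, with a log2 fold change of 0.54 ± 0.20 (SE), but it missed the threshold (edgeR adjusted p = 0.194). Its partner Cdc6, an ATPase that recruits CDT1, was scarce, with 1.71, 2.55, and 3.75 in WT and 3.05, 1.36, and 6.07 in Ifnar1-/- libraries (log2 fold change -0.40 ± 0.53, edgeR adjusted p = 0.741; 0.26 without Ifnar1-/- library 3). The helicase subunit Mcm2 had 11.2, 15.3, and 17.0 normalized CPM in WT and 16.3, 15.4, and 22.6 in Ifnar1-/- libraries (-0.33 ± 0.22, edgeR adjusted p = 0.483). Mcm6 had 21.9, 25.5, and 33.4 in WT and 30.2, 27.5, and 39.5 in Ifnar1-/- libraries (-0.27 ± 0.20, edgeR adjusted p = 0.524). For Cdc6, Mcm2, and Mcm6 the groups overlapped, and Ifnar1-/- library 3 held the highest value of each. Of the other helicase subunits, Mcm3 had a log2 fold change of 0.06 (95% confidence interval -0.30 to 0.41), Mcm5 of 0.01 (-0.44 to 0.46), Mcm4 of -0.23 (-0.59 to 0.13), and Mcm7 of -0.23 (-0.81 to 0.35). Gmnn, which encodes the CDT1 inhibitor geminin, and Mcm10, a factor that activates the loaded helicase, had log2 fold changes of -0.34 and 0.09. Mcm2 to Mcm7 together summed to 126, 161, and 174 normalized CPM in WT and 155, 154, and 199 in Ifnar1-/- libraries, a range of 1.58-fold over the 6 libraries.

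At the replication fork, Timeless, which encodes a fork protection factor that stabilizes stalled forks with its partner TIPIN, had 21.3, 10.2, and 11.1 normalized CPM in WT and 2.6, 4.07, and 4.78 in Ifnar1-/- libraries. These came from 150, 48, and 56 counts in WT and 17, 24, and 26 in Ifnar1-/- libraries. All WT values were above all Ifnar1-/- values, and WT library 1 was the highest. The log2 fold change was 1.92 ± 0.35 (SE; edgeR adjusted p = 0.0182), and the exact two-sided permutation test gave p = 0.1, the smallest that 3 against 3 libraries allow. Tipin had 4.13, 4.89, and 3.75 in WT and 4.73, 5.93, and 8.46 in Ifnar1-/- libraries. Its groups overlapped slightly, with the 2 highest values in Ifnar1-/- libraries 2 and 3, and its log2 fold change of -0.58 ± 0.30 was of the opposite sign to that of Timeless (edgeR adjusted p = 0.348). Timeless was called in 14 of 17 settings. The call was lost without Ifnar1-/- library 1 (log2 fold change 1.72, edgeR adjusted p = 0.107), without Ifnar1-/- library 2 (2.00, edgeR adjusted p = 0.0627), and without both libraries numbered 3 (2.28, edgeR adjusted p = 0.0560).

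Timeless lies on chr10:128232065-128252941 (GRCm38, plus strand), 17.6 kb upstream of Stat2, a transcription factor of type I IFN signaling. Stat2 had 189, 123, and 139 normalized CPM in WT and 30.8, 44.1, and 35.3 in Ifnar1-/- libraries (log2 fold change 2.04 ± 0.20, edgeR adjusted p = 0.000347). Both genes were thus higher in WT, and WT library 1 was the highest for each, as for 24.2% of all tested genes. Other expressed genes nearby were not called: Pan2 had a log2 fold change of -0.24, Rbms2 of -0.10, and Baz2a of 0.50 (edgeR adjusted p = 0.608, 0.880, and 0.170). Baz2a still had every WT value above every Ifnar1-/- value. Baz2a and Rbms2 were also highest in WT library 1, and Pan2 was highest in Ifnar1-/- library 3. Apon and Apof, which lie between Timeless and Stat2, had at most 0.427 normalized CPM in any library. Gm26847, which overlaps the start of Timeless on the other strand, had at most 0.916. T cell markers were low but separated by genotype in their sum: the 11 genes summed to 97.6 to 137 normalized CPM in WT and 49.1 to 58.6 in Ifnar1-/- libraries, and 5 of the 11 had every WT value above every Ifnar1-/- value, against 11.1% of all genes. None of the 8 that were tested was called (edgeR adjusted p from 0.0610 for Il7r to 0.566 for Trbc2). Most of the sum was Il7r, and the other 10 genes summed to 21.9 to 53.9 in WT and 8.98 to 24.4 in Ifnar1-/- libraries, where the groups overlapped, with Cd3d at 1.91 to 4.27 and 0.339 to 1.83. The part of T cell RNA in the Timeless difference was not tested.

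The other fork genes did not pass the test. Pcna, the sliding clamp of the DNA polymerases, had the highest level per length of the set, with a mean of 91.7 normalized CPM per kb, which placed it at the 91.1 percentile of tested genes. It had 70.7, 86.9, and 95.4 normalized CPM in WT and 115, 68.3, and 101 in Ifnar1-/- libraries (log2 fold change -0.17 ± 0.20, edgeR adjusted p = 0.710), with the highest and the lowest value both in Ifnar1-/- libraries. Its expected count was not whole in any of the 6 libraries (tolerance 0.005), so reads were shared with similar sequences and its counts are uncertain. Cdc45, Gins1, and Gins2, which complete the active helicase, had log2 fold changes of -0.43, -0.10, and 0.44.

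**Figure D2:**
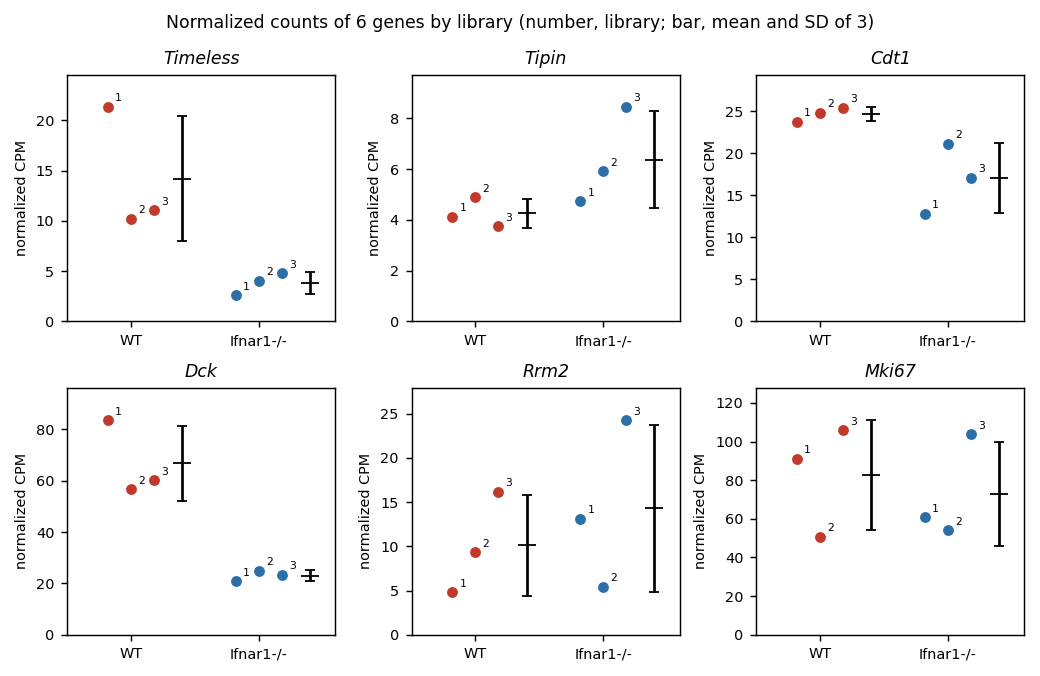
Normalized CPM of Timeless, Tipin, Cdt1, Dck, Rrm2, and Mki67 in each WT (red) and Ifnar1-/- (blue) library, with library numbers and the mean and SD of 3 libraries. The groups are apart for Timeless, Cdt1, and Dck and overlap for Tipin, Rrm2, and Mki67, where library 3 is high in both genotypes for the last 2.

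Nucleotide supply genes, 0 of 4 called, varied widely between libraries of one genotype. Rrm2, the regulated subunit of ribonucleotide reductase, had 4.84, 9.35, and 16.2 normalized CPM in WT and 13.1, 5.42, and 24.3 in Ifnar1-/- libraries, a 5.02-fold range. Tyms, thymidylate synthase, had 2.85, 4.04, and 7.90 in WT and 8.86, 4.58, and 8.46 in Ifnar1-/- libraries. Tk1, the thymidine salvage kinase of S phase, had 2.56, 4.68, and 6.71 in WT and 2.44, 1.86, and 4.23 in Ifnar1-/- libraries. All 3 genes overlapped between genotypes, with log2 fold changes of -0.51 ± 0.51 for Rrm2, -0.59 ± 0.40 for Tyms, and 0.69 ± 0.44 for Tk1 (edgeR adjusted p = 0.643, 0.477, and 0.450). Rrm1, the large reductase subunit, had a log2 fold change of -0.16. Without Ifnar1-/- library 3 the log2 fold change of Rrm2 was 0.12.

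Among G1/S genes, 0 of 3 were called. Ccne2, a cyclin that activates CDK2, had 0.142, 2.34, and 2.17 normalized CPM in WT and 2.75, 2.20, and 4.05 in Ifnar1-/- libraries, from 1 count in WT library 1 to 22 in Ifnar1-/- library 3. WT library 1 lay below the others and below its own floor, and the log2 fold change was -1.03 with an interval of -2.48 to 0.41 (edgeR adjusted p = 0.442). Without WT library 1 it was -0.39, and over the fits without one library it ran from -1.47 to -0.39. Cdk2 had 14.1, 15.9, and 19.0 in WT and 23.1, 15.1, and 23.4 in Ifnar1-/- libraries (-0.33 ± 0.22, edgeR adjusted p = 0.456), and Ccne1 had a log2 fold change of -0.03. Of the 4 regulators of transcription and chromatin 0 were called. E2f1, an activator of S phase genes, had 7.83, 5.95, and 9.67 in WT and 7.79, 9.49, and 10.3 in Ifnar1-/- libraries (-0.23 ± 0.25, edgeR adjusted p = 0.677). The repressor E2f8, the mitotic activator Foxm1, and Uhrf1, which guides maintenance DNA methylation, were close between genotypes, with log2 fold changes of -0.02, 0.05, and 0.04, although single libraries differed by 2.40-fold to 2.66-fold.

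Mitotic cyclins and their kinase showed a wider spread than the helicase genes. Ccna2, the cyclin of S phase and G2, had 4.84, 14.2, and 20.1 normalized CPM in WT and 16.2, 11.0, and 23.4 in Ifnar1-/- libraries. Ccnb1, the main mitotic cyclin, had 2.70, 7.23, and 10.5 in WT and 9.16, 4.41, and 11.0 in Ifnar1-/- libraries. Cdk1, its kinase, had 2.13, 3.61, and 7.11 in WT and 6.26, 3.39, and 6.99 in Ifnar1-/- libraries. The groups overlapped for these genes, WT library 1 was lowest for each, and log2 fold changes were -0.39 ± 0.43, -0.30 ± 0.46, and -0.40 ± 0.44 (edgeR adjusted p = 0.684, 0.779, and 0.686). Summed with Ccnb2, they ranged from 14.4 to 56.3 normalized CPM, or 3.92-fold, over the 6 libraries.

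None of the 6 mitotic kinase and checkpoint genes was called. Bub1b, a component of the spindle checkpoint, was the most abundant of them per length, with 29.9, 31.5, and 43 normalized CPM in WT and 35.4, 40.5, and 49.5 in Ifnar1-/- libraries (log2 fold change -0.27 ± 0.19, edgeR adjusted p = 0.493). Plk1, a kinase of mitotic entry and spindle assembly, had 2.85, 6.16, and 6.52 in WT and 5.19, 4.41, and 4.97 in Ifnar1-/- libraries (0.06 ± 0.35, edgeR adjusted p = 0.951). Birc5, which encodes survivin of the chromosomal passenger complex, had 1.99, 7.44, and 8.88 in WT and 5.34, 2.88, and 9.19 in Ifnar1-/- libraries (0.04 ± 0.53, edgeR adjusted p = 0.981). For all 3 the difference between genotypes was smaller than the spread within each of them. Aurka, Aurkb, and Bub1, kinases of the spindle poles, the centromere, and the checkpoint, had log2 fold changes of -0.55, -0.06, and -0.72. Cdc20 and Ube2c, an activator and a ubiquitin-conjugating enzyme of the anaphase-promoting complex, both had 0.23.

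Of the 6 spindle, kinetochore, and chromosome genes 0 were called. Mki67, the proliferation marker that coats mitotic chromosomes, had 91.2, 50.8, and 106 normalized CPM in WT and 60.9, 54.1, and 104 in Ifnar1-/- libraries (log2 fold change 0.18 ± 0.29, edgeR adjusted p = 0.790). Top2a, the topoisomerase that untangles chromosomes, had 19.6, 24.0, and 50.7 in WT and 43.4, 30.2, and 53.1 in Ifnar1-/- libraries (-0.43 ± 0.33, edgeR adjusted p = 0.532). Stmn1, a microtubule-destabilizing protein, had 10.5, 15.7, and 23.5 in WT and 18.5, 12.9, and 23.5 in Ifnar1-/- libraries (-0.15 ± 0.30, edgeR adjusted p = 0.839), and its count was not whole in 5 libraries. Library 3 was high in both genotypes for these genes, and the groups overlapped. Tpx2, Cenpe, and Cenpf, which act in spindle assembly and at kinetochores, had log2 fold changes of -0.41, -0.02, and -0.24.

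The libraries differed in the set as a whole more than the genotypes did. The 45 genes summed to 541, 623, and 831 normalized CPM in WT and 690, 571, and 887 in Ifnar1-/- libraries, or 665 ± 149 and 716 ± 159 (SD, n = 3). The groups overlapped, and from low to high the libraries ran WT 1, Ifnar1-/- 2, WT 2, Ifnar1-/- 1, WT 3, Ifnar1-/- 3. The order was the same without Timeless and without Mki67 and Pcna, and it was the same for the nucleotide supply genes and for the mitotic cyclins with Cdk1. The sums of the other roles ran in other orders: the fork genes were lowest in Ifnar1-/- library 2 and highest in Ifnar1-/- library 1, the spindle, kinetochore, and chromosome genes were lowest in WT library 2, and the transcription and anaphase-promoting complex genes were highest in WT library 3. Of the 45 genes, 41 were above their own mean over 6 libraries in WT library 3 and 40 in Ifnar1-/- library 3, while 5 were in WT library 1 and 11 in Ifnar1-/- library 2. Ifnar1-/- library 3 was the highest for 26 of the 45, compared with 14.8% of tested genes, and WT library 1 the lowest for 29, compared with 24.0%. The median deviation from the gene mean (log2) was -0.49, -0.03, and 0.34 in WT and 0.07, -0.28, and 0.41 in Ifnar1-/- libraries.

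**Figure D3:**
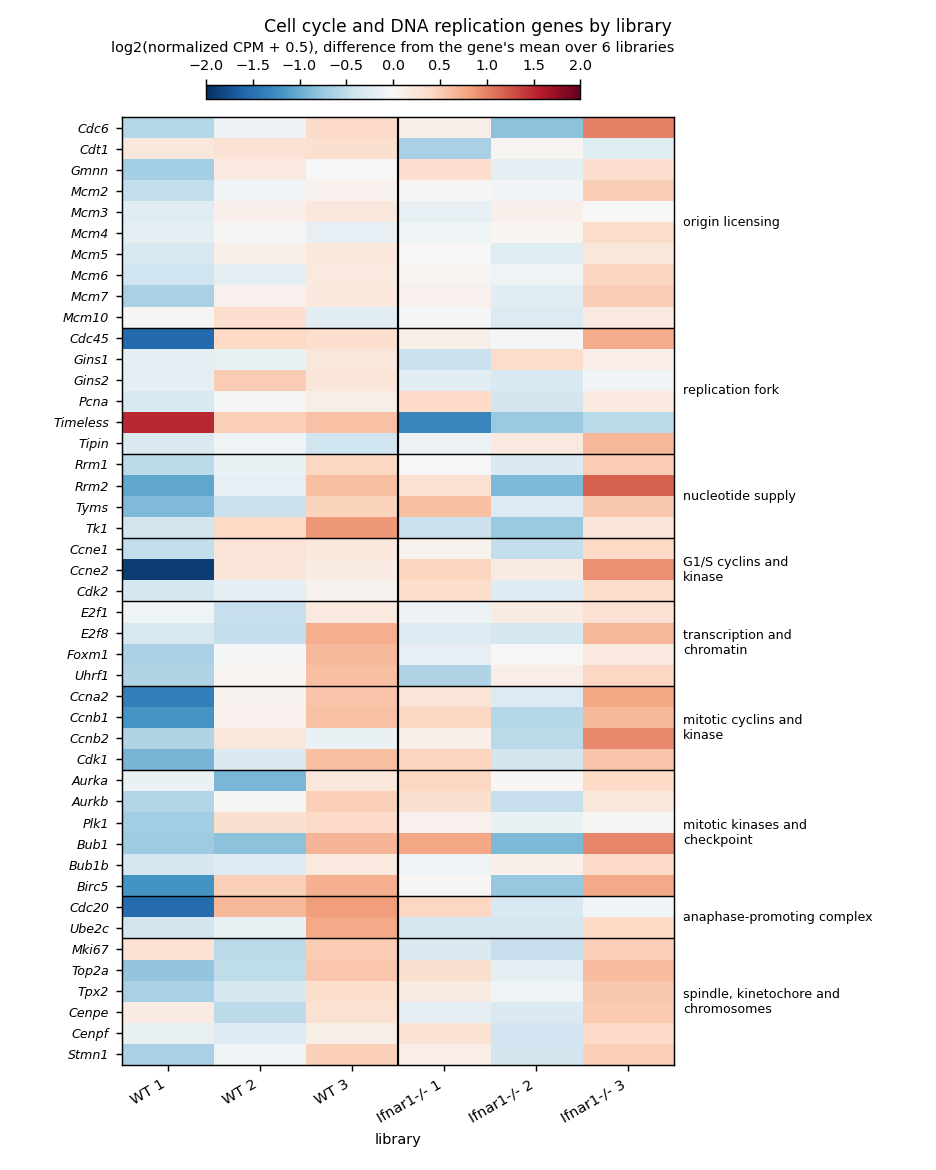
Heat map of log2(normalized CPM + 0.5) of the 45 genes (rows, by role) in 6 libraries (columns), each as the difference from the mean of that gene. WT library 1 is below the mean for most genes and library 3 of both genotypes above it, while Timeless runs by genotype, with WT library 1 the highest.

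Granule genes of myeloid precursors followed this order in their sum. The azurophil granule genes Mpo, Elane, Prtn3, and Ctsg, which are transcribed in BM progenitors, summed to 38.7, 114, and 257 normalized CPM in WT and 140, 91.2, and 437 in Ifnar1-/- libraries. This is the order of the cell cycle genes, with an 11.3-fold range. The sum of 8 neutrophil genes ran from 138 in WT library 1 to 1682 in Ifnar1-/- library 3 in nearly the same order. S100a8, S100a9, and Cxcr2 were highest in Ifnar1-/- library 3, but Camp, Ltf, Mmp9, and Retnlg were highest in WT library 3. Ly6g, the marker of the exclusion gate, did not exceed 0.790 in any library. The stem and progenitor markers Kit and Cd34 were low, stayed between 1.78 and 5.80, and did not follow this order. Kit was highest in WT library 3 and lowest in Ifnar1-/- library 1, and Cd34 was highest in Ifnar1-/- library 1 and lowest in WT library 3. The sums of the granule genes overlapped between genotypes, and the part of such cells in the spread of the cell cycle genes was not tested.

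**Figure D4:**
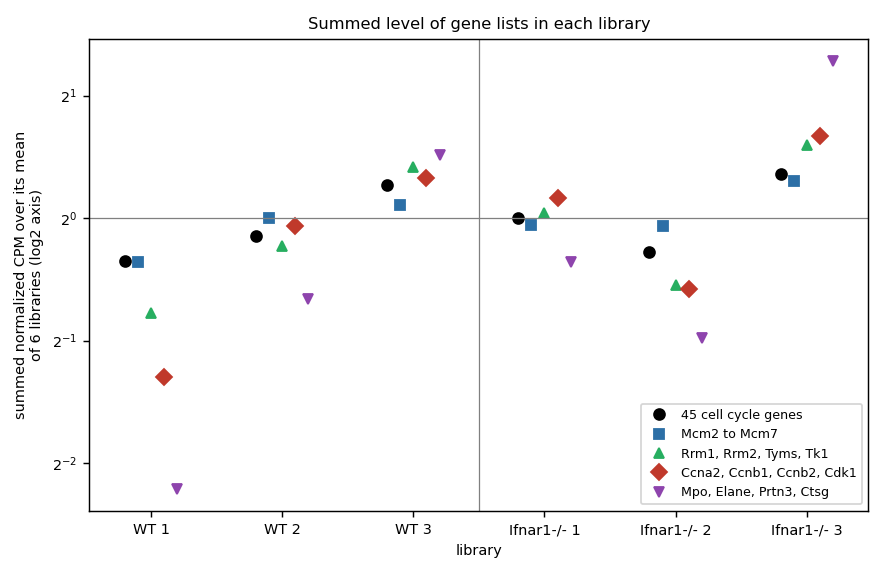
Summed normalized CPM of 5 gene lists in each library, divided by the mean of that list over 6 libraries (log2 axis). Each list is lowest in WT library 1 and highest in Ifnar1-/- library 3, and the range grows from 1.58-fold for Mcm2 to Mcm7 to 11.3-fold for the granule genes.

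Long and short transcripts differed in their median, though not gene by gene, within WT library 1. The 4 genes with transcripts over 4000 bp, Mki67, Top2a, Cenpe, and Cenpf, had a median log2 difference of 0.10 between WT library 1 and the mean of WT libraries 2 and 3, while the 41 shorter genes had -0.66. Single genes crossed this division: Top2a was at -0.82 and Cenpf at -0.08, and the shorter Timeless, Aurka, and E2f1 were at 0.97, 0.21, and 0.04. The corresponding medians over all tested genes were 0.08 and -0.02. In WT library 1 Mki67 was above its mean over the 6 libraries, while Ccna2, Ccnb1, and Cdk1 had their lowest value there. The part of transcript length in these differences was not tested, and an offset for length in the fit left 1 of the 45 genes called.

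The other cell cycle genes, 119 in 4 lists, gave a like picture: 112 were tested, 1 was called higher in WT and 0 lower, and 2.13% of all genes were called in either direction. DESeq2 and limma-voom also called 1, and 6 of the 112 had an unadjusted p below 0.05 in edgeR, against 17.8% of all genes. The called gene was Dck, deoxycytidine kinase, which phosphorylates salvaged deoxynucleosides. Dck had 83.7, 56.7, and 60.2 normalized CPM in WT and 20.8, 24.9, and 23.4 in Ifnar1-/- libraries. The lowest WT value was above the highest Ifnar1-/- value by a wide margin, and the log2 fold change was 1.54 ± 0.18 (edgeR adjusted p = 0.000988), called in 17 of 17 settings. In the same list of origin and replication factors, the origin recognition subunit Orc3 had 17.1, 21.5, and 18.6 in WT and 27.2, 25.8, and 26.3 in Ifnar1-/- libraries (-0.48 ± 0.16, edgeR adjusted p = 0.159).

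Of the 40 other mitosis factors tested 0 were called, and the median log2 fold change was -0.23, the value of the 45 genes. At its ends were Nusap1, a spindle protein, with a log2 fold change of -0.81 ± 0.41, and securin, encoded by Pttg1, with 0.74 ± 0.36 (edgeR adjusted p = 0.332 and 0.306). The 20 G1 cyclin, kinase, and retinoblastoma family genes, 0 of them called, did not share the library order: they summed to 618 to 658 normalized CPM in all 6 libraries. Ccnd1 and Ccnd3, D-type cyclins that respond to growth signals, had log2 fold changes of 0.48 ± 0.31 and 0.20 ± 0.17, E2f4, a repressor E2F, 0.29 ± 0.17, and Lin54, the CHR-binding subunit of DREAM, -0.33 ± 0.15 (edgeR adjusted p = 0.451, 0.568, 0.388, and 0.268).

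Of 17 tested CDK inhibitor and growth arrest genes 0 were called, and the median was 0.13. Cdkn1a, which encodes the CDK inhibitor p21, had 130, 91.6, and 85.9 normalized CPM in WT and 79.6, 69.3, and 64.2 in Ifnar1-/- libraries. Every WT value was above every Ifnar1-/- value, but the log2 fold change of 0.53 ± 0.18 missed the threshold (edgeR adjusted p = 0.165). Samhd1, which hydrolyzes deoxynucleotides, was abundant in both genotypes, with 1326, 1355, and 1226 normalized CPM in WT and 1030, 1365, and 1033 in Ifnar1-/- libraries and a log2 fold change of 0.19 ± 0.17 (edgeR adjusted p = 0.609). Cdkn2c, an inhibitor of CDK4 and CDK6, had a log2 fold change of -0.19 ± 0.36 (edgeR adjusted p = 0.832).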

How the data were processed

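RNA from sorted CNS monocytes was sequenced by the authors as paired-end reads of total RNA. Per the labels' processing notes, STAR 2.6.0c and RSEM 1.2.31 were used with GRCm38. The labels and the methods name different library kits. The deposited expected counts are RSEM estimates that divide shared reads and are not normalized. The deposited TPM and FPKM values were scaled by the authors for transcript length and library size. TPM set the rule for the highest members and the check of WT library 1, and FPKM was not used.

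Groups came from the deposited labels. Expected counts were rounded, and GENCODE M21 symbols matched 54165 of 54232 identifiers. Genes passing filterByExpr (minimum count 10) were fitted with edgeR 4.0.16 in R 4.3.3 (TMM, quasi-likelihood test, genotype as the single term, Benjamini-Hochberg adjustment over all genes tested). Confidence intervals used the SE and the degrees of freedom of that fit. Single genes were also tested by exact permutation on log2(normalized CPM + 0.5). The test was checked on simulated counts. Totals per library and the floor of 3 counts stand in the report, and the SE of each fold change covers the spread between the 3 libraries per group.

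The 45 genes and all other lists were chosen with earlier results of these data known. Genes given in every library are the called genes, the 3 smallest p-values in each direction, the 3 highest mean TPM, and genes fixed by role. Genes named from the other lists are the called gene, the smallest p in each list and direction, and 4 fixed genes. Of these, Dck, Orc3, Cdkn1a, and Samhd1 are given in every library, and the rest by fold change. Neighbors of Timeless and Rn7s2 were added after their values were seen. Alternatives were DESeq2 1.42.0, limma-voom (limma 3.58.1), RLE normalization, other filters on low counts, an adjusted p alone, leaving out mitochondrial and ribosomal RNA genes, TPM, another pseudocount, a replicate block, and leaving out each library. An offset for transcript length and leaving out both libraries numbered 3 were added after seeing the data.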

Additional observations from a re-analysis of the deposited data

How the results depend on the processing

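Of the 45 genes, 1 was called with edgeR, DESeq2, limma-voom, RLE normalization, no filter on low counts, and the offset for transcript length, and 1 of the 39 genes that were tested with at least 10 counts in every library. Leaving out one library gave 0 to 1 called, and leaving out both libraries numbered 3 gave 0. For Timeless the log2 fold change was 1.72 without Ifnar1-/- library 1, 2.00 without Ifnar1-/- library 2, and 2.28 without both libraries numbered 3, and over the 6 fits without one library it ran from 1.49 to 2.13 (edgeR adjusted p 0.0227 to 0.107). The median of the 45 genes ran from -0.38 to 0.05 over those fits. Over all genes the 240 calls became 419 with DESeq2, 872 without a filter, 119 to 245 without one library (148 without WT library 3, 119 without Ifnar1-/- library 1, and 120 without Ifnar1-/- library 3), and 95 without both libraries numbered 3. The cause was not tested. Dck kept its call in 17 of 17 settings.

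Libraries of different genotypes can share a mouse, because each recipient carried cells of both. The replicate numbers were not taken to pair the libraries, since the labels do not say that equal numbers share a mouse. Across genes, the deviations from the group mean correlated between libraries of one number at 0.0873, 0.0265, and 0.289, the last being the highest of all pairs. Between libraries of different numbers the correlations ran from -0.204 to 0.101, the latter for WT library 1 with Ifnar1-/- library 2. Whether the numbers mark pairs is thus not settled. With the replicate block, 220 genes and 1 of the 45 were called, and Timeless had an edgeR adjusted p of 0.0409. With 3 libraries per genotype, the intervals of 21 of the 45 genes reached beyond a 2-fold difference, and Ccne2, Bub1, and Cdc20, with few counts, had the largest SE of the set.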
